A study of Mus musculus with 12 samples.

Results

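The node of Ranvier is the short unmyelinated gap at which a myelinated axon regenerates its action potential. The 10 genes described here encode proteins of the node, of its neighbouring domains and of axon adhesion: the ankyrins Ank2 and Ank3, the spectrin Sptbn4, the contactins Cntn1 and Cntn2, the contactin-associated proteins Cntnap1 and Cntnap2, and the L1 family members Nfasc, Nrcam and L1cam. They were taken by name from the 18194 genes that had at least 1 probe of their own on the array, and where a gene had several such probes the one with the brightest mean over the 12 arrays was read. A gene was tested where its mean signal was above 50 in at least 1 of the 4 groups, which held for 9 of the 10 genes and for 10511 genes in all. Cntnap1, whose protein is part of the paranodal junction, did not reach that level.

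Spinal cord at the level of the ninth thoracic vertebra (Th9) was profiled from female C57BL/6 mice (C57BL/6J in the study's methods) on Affymetrix arrays, with 3 arrays in each of 4 groups. Young mice were 2 to 3 months old and aged mice were 15 to 18 months old, and within each age the cord was either intact, from naive mice, or taken 9 days after a contusion spinal cord injury (SCI) at Th9. No transgene, graft or drug treatment was named for any of these groups, and all mice were perfused with heparinized saline before dissection. The comparisons ask how SCI changed the signals at each age, whether the ages differed in intact or injured cord, and whether the change with SCI differed between the ages (the interaction). Comparisons that use the same group of arrays are not independent of each other.

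At the node, voltage-gated sodium channels are clustered by ankyrin G, the product of Ank3, which binds neurofascin and NrCAM at the membrane and beta IV spectrin, the product of Sptbn4, beneath it. On each side of the node, at the paranode, contactin 1 and the Cntnap1 product on the axon bind the glial form of neurofascin on the myelin loops. Further out, at the juxtaparanode, contactin 2 and the Cntnap2 product hold the shaker-type potassium channels under the myelin. Ankyrin B, the product of Ank2, is a scaffold along the axon, and L1cam is an adhesion protein of unmyelinated and growing axons.

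The tissue label was checked against marker genes of neurons, myelin and macrophages. Of 14 neuron markers tested, none was under a signal of 50 on any intact array, and their summed signal ran from 25880 to 27320 in intact cord. It ran from 8880 to 13730 in young injured cord and was 1979, 12670 and 8287 on the aged injured arrays of replicates 1, 2 and 3. Summed signals of 12 oligodendrocyte and myelin markers ran from 31750 to 33940 in young intact, 27040 to 28610 in aged intact, 28290 to 30100 in young injured and 18160 to 26210 in aged injured cord. All 9 macrophage and microglia markers were higher after SCI at both ages, with sums of 2178 to 2405 in young intact, 4002 to 4168 in aged intact, 15390 to 20230 in young injured and 20460 to 24150 in aged injured cord. The aged injured array of replicate 1 stood apart: 6 of the 14 neuron markers were under 50 on it and on no other array. In such bulk tissue, fewer cells of a type and less RNA per cell cannot be told apart.

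In young mice, 6 of the 9 genes tested fell after SCI and none passed the test upwards, beside 34.1% of all genes tested lower and 33.9% higher. The genes that fell were Cntnap2, Sptbn4, L1cam, Ank3, Cntn2 and Ank2. In aged mice these 6 and Cntn1 fell, making 7 of 9, and again none passed the test upwards, beside 39.9% of all genes lower and 35.6% higher. The median log2 fold change of the 9 genes was -0.72 in young and -1.27 in aged mice, beside -0.0048 and -0.04 over all genes tested. The 3 injured arrays lay below all 3 intact arrays for 7 of the 9 genes at each age, beside 38.7% of all genes in young and 41.6% in aged mice. Nfasc and Nrcam were the exceptions, and in young mice their injured arrays lay above every intact array, as they did for 37.5% of all genes.

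**Figure D1:**
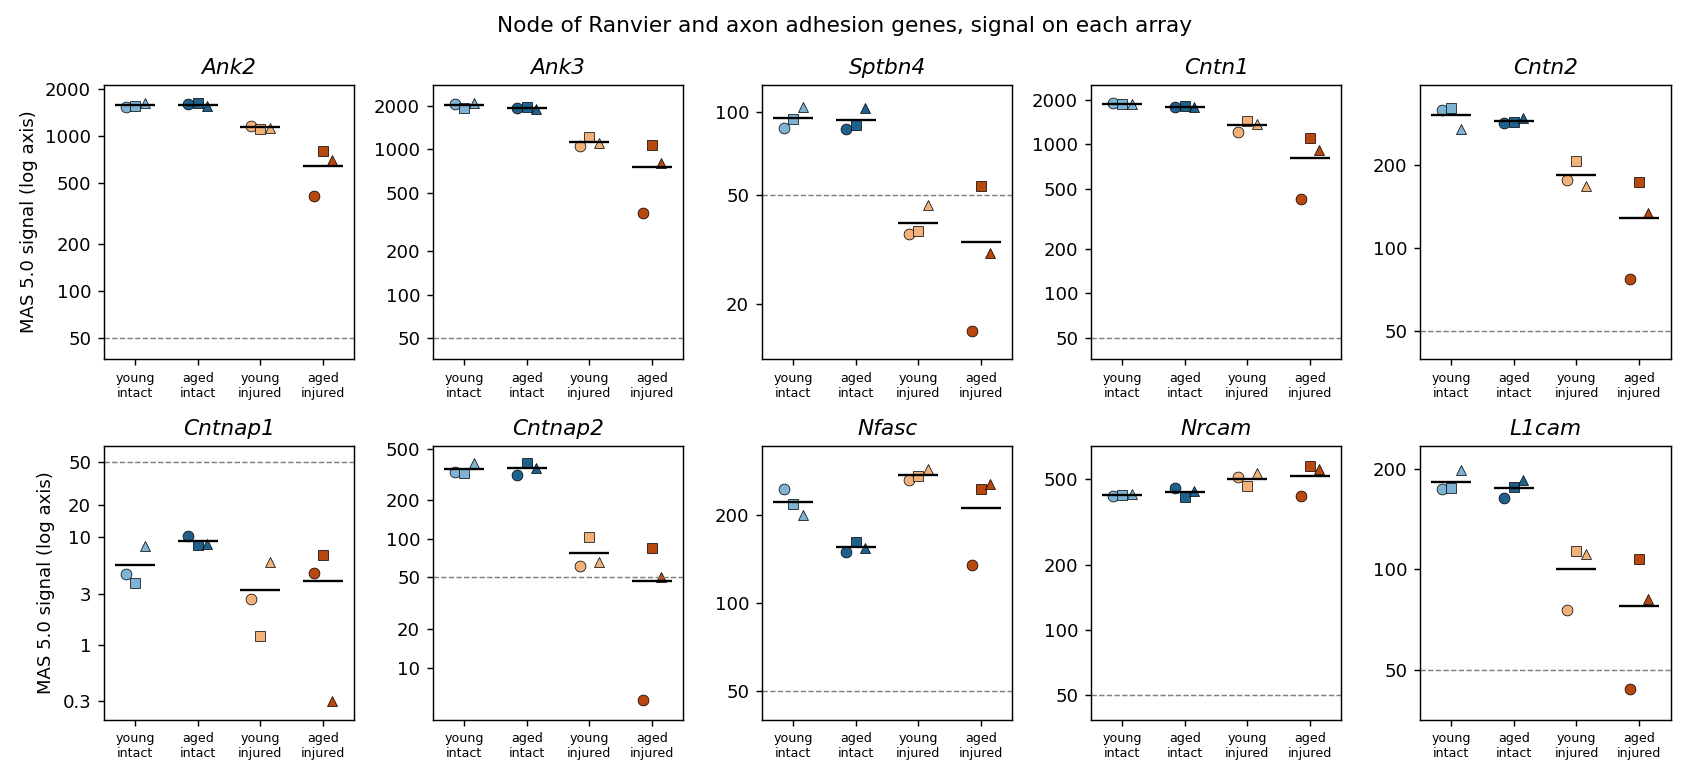
MAS 5.0 signal of the 10 genes on each of the 12 arrays, on a log axis that differs between panels. Circles, squares and triangles are replicates 1, 2 and 3, horizontal bars are group means and the dashed line is a signal of 50; the aged injured circle is the lowest point of its panel for 8 of the 9 genes above that line, Nrcam being the exception.

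Cntnap2, the juxtaparanodal partner of contactin 2, changed the most. Its signals in young mice were 330.8, 320.8 and 387.1 in intact and 61.7, 103.5 and 66.1 in injured cord. In aged mice they were 312.7, 383.8 and 354.2 in intact and 5.6, 84.2 and 50.2 in injured cord. At both ages every injured array was far below every intact one, and the aged injured arrays differed widely among themselves. The young injured mean was 22.3% of the intact mean, a log2 fold change of -2.20 ± 0.75 (SE; adjusted p = 0.022). That call was lost with the mean of all its probes (adjusted p = 0.068), and without young intact replicate 3 or young injured replicate 1 or 3 (adjusted p = 0.0586 to 0.0653). A fit of the young arrays alone kept it (adjusted p = 9.21e-06). In aged mice the injured mean was under 50, so the fall was at least 7-fold (adjusted p = 0.0011). A second probe fell as well, from a mean of 230.6 to 78.9 in young and from 232.1 to 55.7 in aged mice.

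Cntn2 encodes contactin 2, or TAG-1, which sits at the juxtaparanode on both the axon and the glial membrane. Young mice had 315.7, 323 and 270.2 in intact and 177.1, 206.2 and 167.6 in injured cord. Aged mice had 282.9, 286.3 and 296.3 in intact and 77, 174.1 and 134.2 in injured cord. No injured array reached an intact one at either age. The log2 fold change was -0.72 ± 0.23 (SE; adjusted p = 0.0161) in young and -1.25 ± 0.23 (adjusted p = 0.000503) in aged mice. The young call was lost with the mean of all probes (-0.36, adjusted p = 0.185) and without young injured replicate 3 (adjusted p = 0.0538). It was kept in a fit of the young arrays alone (adjusted p = 0.000262).

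Cntn1 encodes contactin 1, the axonal contactin of the paranode. Its signals were 1901.1, 1862 and 1873.4 in young intact and 1212, 1438.7 and 1379.3 in young injured cord. They were 1796.2, 1798.6 and 1786.8 in aged intact and 429.2, 1105.9 and 910.8 in aged injured cord. All injured arrays lay below all intact arrays, but the young difference of -0.49 ± 0.26 (log2, SE) missed the threshold (adjusted p = 0.116). In a fit of the young arrays alone that difference passed (adjusted p = 0.000299). The aged difference was -1.25 ± 0.26 (adjusted p = 0.00115). A second Cntn1 probe fell at both ages, with -0.79 in young mice (adjusted p = 0.0143) and -1.20 in aged mice (adjusted p = 0.00102). The third probe, like the first, missed in young mice (-0.55, adjusted p = 0.0781) and fell in aged mice (-1.24, adjusted p = 0.00101).

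Cntnap1 gave signals between 0.3 and 10.4 on all 12 arrays through its single probe. A probe this dim on intact cord gives no basis for a comparison, and no fold change is reported for it.

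Among the scaffold genes under the membrane, Ank3 had 2068.1, 1929.7 and 2097.3 in young intact and 1063.4, 1225.1 and 1104.8 in young injured cord. In aged mice it had 1929.4, 1967 and 1884.1 in intact and 364.3, 1078 and 813.1 in injured cord. The intact arrays of both ages sat within a narrow band well above all injured arrays. Injured means were 55.7% of intact in young (log2 fold change -0.85 ± 0.29, adjusted p = 0.0233) and 39.0% in aged mice (-1.50 ± 0.29, adjusted p = 0.000724). The young call was lost without young intact replicate 1 or 3 or young injured replicate 1 or 3 (adjusted p = 0.0572 to 0.0656). It was kept in a fit of the young arrays alone (adjusted p = 1.03e-05). The 3 further Ank3 probes above 50 fell too, with log2 fold changes of -1.20 to -0.98 in young and -1.86 to -1.55 in aged mice.

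Sptbn4, the spectrin of the node, had signals near the threshold of 50, with 87.8, 94.4 and 104.1 in young intact and 86.7, 89.8 and 103.6 in aged intact cord. After SCI it gave 35.9, 37 and 45.7 in young and 15.9, 54 and 30.6 in aged mice. Both injured means were under 50, so its fall was at least 1.91-fold in young (adjusted p = 0.00588) and at least 1.87-fold in aged mice (adjusted p = 0.000943). No other probe of Sptbn4 was on the array under these rules.

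Ank2 gave 1546.3, 1565.8 and 1626 in young intact, 1167.4, 1109.7 and 1132.6 in young injured, 1600.4, 1627.7 and 1550 in aged intact and 409.4, 796.4 and 701.3 in aged injured cord. The 4 groups fell into 3 levels: intact cord of either age highest, young injured below it, and all aged injured arrays lowest. SCI left 72.0% of the intact mean in young mice (log2 fold change -0.47 ± 0.18, adjusted p = 0.0399) and 39.9% in aged mice (-1.38 ± 0.18, adjusted p = 5.63e-05). The young result was close to the threshold, and a second bright probe with nearly the same difference of -0.46 missed it (adjusted p = 0.065). It was also lost without a filter on low values, with the mean of all probes, and without any 1 of the 6 young or of the 3 aged intact arrays (adjusted p = 0.052 to 0.809). These fits share 1 spread per gene over all arrays used, the aged injured ones included. With only the young arrays in the fit the young difference of -0.47 had adjusted p = 8.28e-05. Without aged injured replicate 1 it had adjusted p = 1.34e-05.

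The L1 family genes encode immunoglobulin-type adhesion proteins that bind ankyrins. L1cam fell after SCI at both ages, and neither Nfasc nor Nrcam was called by its probe of highest signal. The upstream sequences of these 3 genes are shown because they are close relatives, of which L1cam was called at both ages and the others depended on the probe, and whether their changes differed was not tested. They are the 250 bases before the most upstream start site of each gene in RefSeq (GRCm38.p6), read 5′ to 3′ on the gene's strand, with the GC box GGGCGG, found on either strand, in capitals. Nrcam lies at chr12:44328635-44328884 on the plus strand, Nfasc at chr1:132707327-132707576 on the minus strand and L1cam at chrX:73880835-73881084 on the minus strand.
Nrcam: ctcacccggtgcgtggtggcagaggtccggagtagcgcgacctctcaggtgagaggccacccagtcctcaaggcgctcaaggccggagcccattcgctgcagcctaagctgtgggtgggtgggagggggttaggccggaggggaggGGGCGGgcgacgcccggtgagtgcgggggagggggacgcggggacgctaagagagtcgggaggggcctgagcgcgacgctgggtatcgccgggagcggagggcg
Nfasc: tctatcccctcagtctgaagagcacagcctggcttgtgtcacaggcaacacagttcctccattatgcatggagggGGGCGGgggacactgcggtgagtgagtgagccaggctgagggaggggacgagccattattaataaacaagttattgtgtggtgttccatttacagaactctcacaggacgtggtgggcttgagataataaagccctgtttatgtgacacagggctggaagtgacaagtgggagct
L1cam: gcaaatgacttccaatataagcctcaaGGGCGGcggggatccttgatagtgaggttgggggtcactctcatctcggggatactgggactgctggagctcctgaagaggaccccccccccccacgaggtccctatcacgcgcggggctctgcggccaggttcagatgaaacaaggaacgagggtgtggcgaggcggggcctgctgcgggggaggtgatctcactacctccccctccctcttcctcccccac

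Each of the 3 windows held 1 GC box, a motif present in 32.7% of all 32851 windows of this length. CpG pairs numbered 25 in the Nrcam, 12 in the L1cam and 4 in the Nfasc window, beside a median of 6. None held TATAAA, which 12.4% of all windows held on either strand. The sequence table covered 8 of the 10 genes; Ank3 and Cntnap1 were not matched. Among the other matched genes, Sptbn4 and Cntnap2 held a GC box, Ank2, Cntn1 and Cntn2 held none, and Ank2 alone held TATAAA. These letters describe the windows, and no binding was measured.

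L1cam signals were 174.3, 175.9 and 198.2 in young intact and 75.4, 113.8 and 110.8 in young injured cord. Aged mice gave 164, 176.7 and 185.9 in intact and 43.8, 107.5 and 81.2 in injured cord. Injured and intact arrays did not overlap at either age, with log2 fold changes of -0.89 ± 0.27 (SE; adjusted p = 0.0129) in young and -1.27 ± 0.27 (adjusted p = 0.00131) in aged mice. The young call was lost without young injured replicate 1 (-0.70, adjusted p = 0.0583). A fit of the young arrays alone kept it (adjusted p = 0.000772).

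Nrcam, a nodal partner of neurofascin, had 417.5, 423.1 and 429.8 in young intact and 510.4, 464.4 and 535.8 in young injured cord. In aged mice it had 454.9, 415.8 and 442.1 in intact and 420.6, 576.4 and 561.5 in injured cord. The young groups did not overlap, whereas the aged injured array of replicate 1 lay among the aged intact ones. Neither difference passed the test, at 0.25 ± 0.11 (log2, SE; adjusted p = 0.0652) in young and 0.23 ± 0.11 (adjusted p = 0.0728) in aged mice. A second Nrcam probe went the other way, at -0.14 in young (adjusted p = 0.404) and -0.41 in aged mice (adjusted p = 0.0224), so the direction for Nrcam depended on the probe.

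Nfasc has neuronal and glial protein forms, which the array does not separate by name. It gave 245.6, 218.8 and 200.2 in young intact, 264, 272.9 and 288.2 in young injured, 149.6, 162.4 and 153.8 in aged intact and 134.6, 246.6 and 255.6 in aged injured cord. In aged mice, replicates 2 and 3 of the injured group were above all intact arrays and replicate 1 was below them. The differences were 0.32 ± 0.20 (log2, SE; adjusted p = 0.178) in young and 0.39 ± 0.20 (adjusted p = 0.0927) in aged mice. Its second probe gave -0.13 in young (adjusted p = 0.402) and -0.33 in aged mice (adjusted p = 0.0421). The third probe, which was dim with a mean of 36.2, gave 0.63 (adjusted p = 0.0426) and 0.77 (adjusted p = 0.0144). The Nfasc probes thus disagreed in sign, as the Nrcam probes did.

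**Figure D2:**
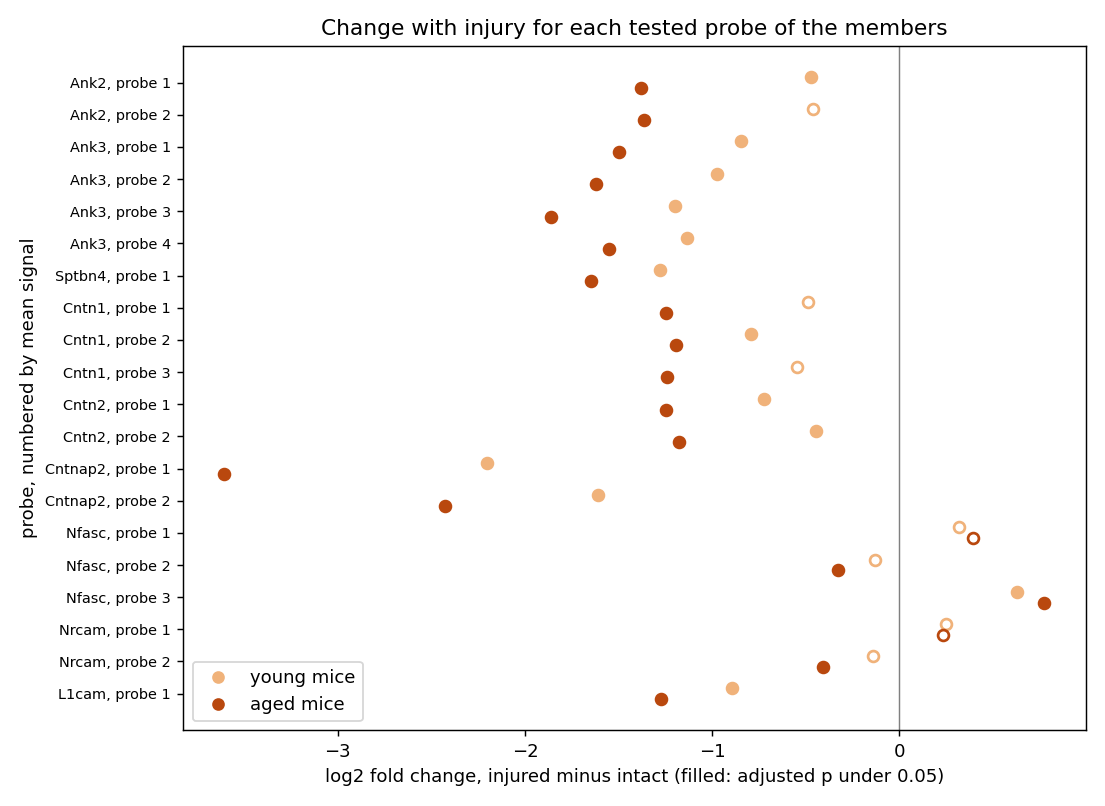
Log2 fold change with SCI for each of the 20 probes of these genes that were above 50 in at least 1 group, numbered within a gene from the highest mean signal down, in young (light) and aged (dark) mice. Every probe of Ank2, Ank3, Sptbn4, Cntn1, Cntn2, Cntnap2 and L1cam lies left of 0, while those of Nfasc and Nrcam lie on both sides.

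The array of replicate 1 in the aged injured group bears on all of these values. It was the lowest of the 12 arrays for 8 of the 9 genes, at 8.33% (Cntnap2) to 53.6% and 54.7% (Nfasc and Ank2) of the mean of the other two aged injured arrays, and for Nrcam it was at 73.9%. Its neuron marker sum was 7.29% of the aged intact mean, against 46.6% and 30.5% on replicates 2 and 3, and its myelin marker sum was 65.6%, against 94.7% and 89.1%. Whether the neuron and myelin signals have a part in the differences of these genes was not tested. Without this array all 9 genes were called at both ages, 7 lower and 2 higher. The shares over all genes were then 37.3% lower and 35.5% higher in young mice, and 38.5% lower and 33.8% higher in aged mice. Nfasc was then 0.32 higher in young (adjusted p = 0.00416) and 0.69 higher in aged mice (adjusted p = 2.78e-05), and Nrcam 0.25 (adjusted p = 0.00495) and 0.38 higher (adjusted p = 0.00058), on the log2 scale. The fall of Cntnap2 in aged mice was then -2.42 on the log2 scale and that of Ank3 -1.04.

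**Figure D3:**
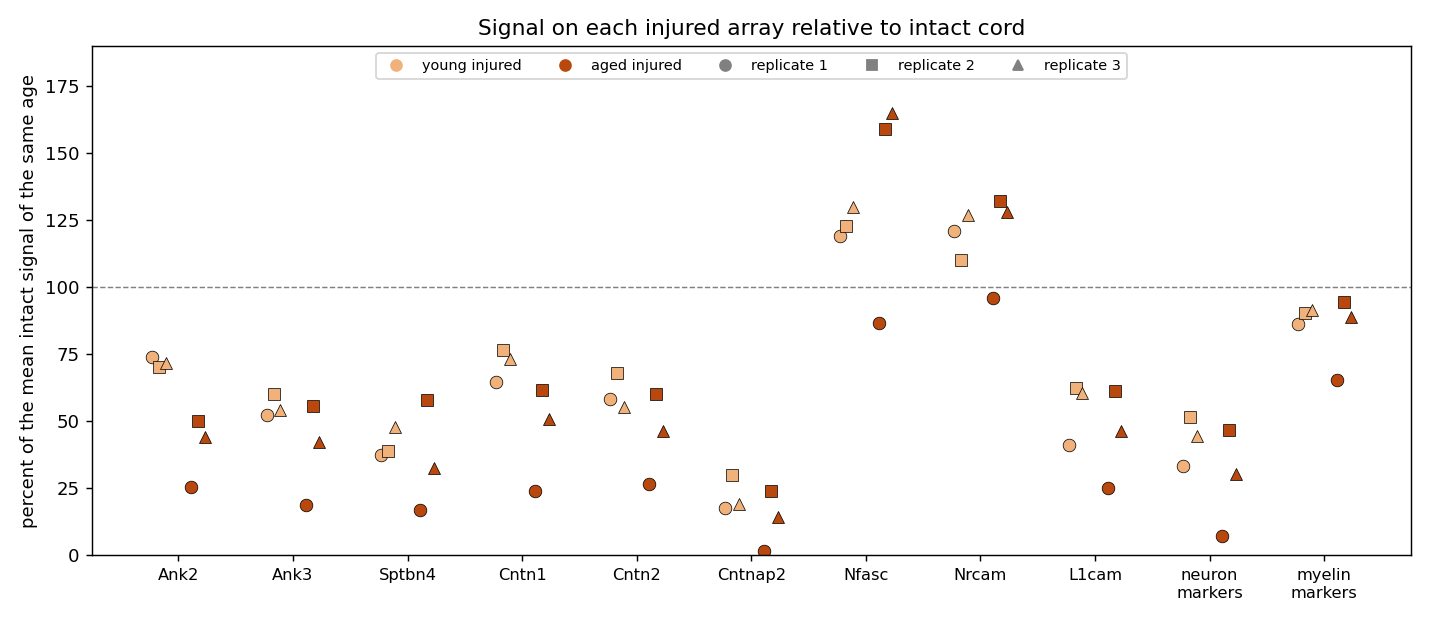
Signal on each injured array as a percentage of the mean intact signal of the same age, for the 9 genes and for the summed markers of neurons (14 genes) and of myelin (12 genes). The dashed line is 100%; the aged injured array of replicate 1 (dark circle) is the lowest point in every column, at 1.6% for Cntnap2 and 96.1% for Nrcam.

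In intact cord, no difference between aged and young mice passed the test among the 9 genes. By limma, 1 gene had an unadjusted p under 0.05, and 0.809% of all genes passed in either direction. Fold changes of 8 genes lay between -0.08 and 0.05 on the log2 scale. Nfasc was the other gene, with aged arrays at 149.6 to 162.4, all below the young arrays at 200.2 to 245.6, a difference of -0.51 ± 0.20 (log2, SE; adjusted p = 0.387). Cntn1 arrays also did not overlap, although its aged mean was 95.5% of the young mean by the probe of highest signal. By the other Cntn1 probes the aged arrays again lay below all young arrays, and by more. Young and aged means were 1506 and 1102 (log2 -0.44, adjusted p = 0.625) and, for the remaining probe, 525.6 and 404.6 (-0.38, adjusted p = 0.733). Aged arrays were below all young arrays for 11.2% of all genes. Without the aged injured array of replicate 1, Nfasc passed (adjusted p = 0.00706), beside 0.799% of all genes lower. With the second Nfasc probe the aged mean of 98.4 was close to the young mean of 102.4. By the third probe the aged arrays lay below all young arrays, but both means were under 50. They were 22.0 in aged and 32.9 in young intact cord (log2 -0.57, adjusted p = 0.468). In the plot of fitted differences the interval for Cntnap2 ran from -1.63 to 1.66 (log2), so that fit does not show its levels to be equal. The width of that interval rests on 1 spread per gene over all arrays, the aged injured ones (5.6, 84.2 and 50.2) included. Its intact arrays themselves ran from 320.8 to 387.1 in young and from 312.7 to 383.8 in aged mice.

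In injured cord, Ank2 was lower in aged than in young mice, and it alone passed the test among the 9 genes, beside 4.58% of all genes lower. Its aged injured mean was 55.9% of the young injured mean, a log2 difference of -0.89 ± 0.18 (SE; adjusted p = 0.0195). A second Ank2 probe gave -0.90 (adjusted p = 0.0275). Among the other probes, the second of Cntn2 (-0.75, adjusted p = 0.0276) and the third of Cntn1 (-1.07, adjusted p = 0.0324) also passed as lower. A fit of the 6 injured arrays alone gave the same Ank2 difference (adjusted p = 0.154), but that fit called 0% of all genes lower and 1974 of 10511 had an unadjusted p under 0.05 in it. The call was also lost on leaving out any 1 of the young injured arrays (adjusted p = 0.0517 to 0.0579). Aged arrays were below all young arrays for Ank2, Cntn1 and Nfasc, as for 14.1% of all genes.

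By the probes of highest signal, the remaining differences between the ages in injured cord did not pass. They were -0.83 ± 0.26 for Cntn1 (adjusted p = 0.0685), -0.72 ± 0.29 for Ank3 (adjusted p = 0.126), -0.59 ± 0.23 for Cntn2 (adjusted p = 0.117) and -1.39 ± 0.75 for Cntnap2 (adjusted p = 0.229) on the log2 scale. Sptbn4, L1cam and Nfasc lay between -0.44 and -0.40, and Nrcam was at 0.03. Both means of Sptbn4 here were under 50 (39.5 in young and 33.5 in aged injured cord), so its differences in this comparison are not reliable. The median of the 9 genes was -0.59, beside -0.04 over all genes. Without replicate 1 of the aged injured group, Cntnap2 was at -0.21, Ank3 at -0.27, Sptbn4 at 0.05, L1cam at -0.07 and Nrcam at 0.18. Ank2 at -0.60 (adjusted p = 0.000899) and Cntn1 at -0.42 (adjusted p = 0.0186) then passed, beside 3.7% of all genes lower. Without replicate 2 of that group, the aged injured array with the highest signal for 8 of the 9 genes, 7 genes passed as lower, beside 17.5% of all genes. In the same comparison the 14 neuron markers had a median of -0.99 with none called (1 with an unadjusted p under 0.05), and 4 of 8 astrocyte markers were called lower, with a median of -0.54. Astrocyte marker sums ran from 15320 to 17240 in young injured cord and were 7813, 12750 and 12090 on aged injured replicates 1, 2 and 3. Of the 12 myelin markers 1 was called lower, with a median of -0.49. These counts stand beside 4.58% of all genes called lower. Without replicate 1 of the aged injured group the medians were -0.13 for the neuron, -0.30 for the astrocyte and -0.24 for the myelin markers. The part of these markers in the differences between the ages was not tested.

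No gene passed the test of the interaction, which asks whether the change with SCI differed between the ages, and 0.438% of all genes passed it in either direction. Ank2 came nearest, with a fall larger by 0.91 ± 0.26 (log2, SE) in aged mice (unadjusted p = 0.00536, adjusted p = 0.149). It was the only one of the 9 with an unadjusted p under 0.05. Ank2 passed without replicate 1 of the aged injured group (-0.62, adjusted p = 0.00853, beside 0.695% of all genes lower) and without replicate 2 (-1.10, adjusted p = 0.0319, beside 2.69%). For Cntnap2 the interval of the interaction ran from -3.73 to 0.93, which is too wide to place it, whereas for Nrcam it ran from -0.36 to 0.33.

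**Figure D4:**
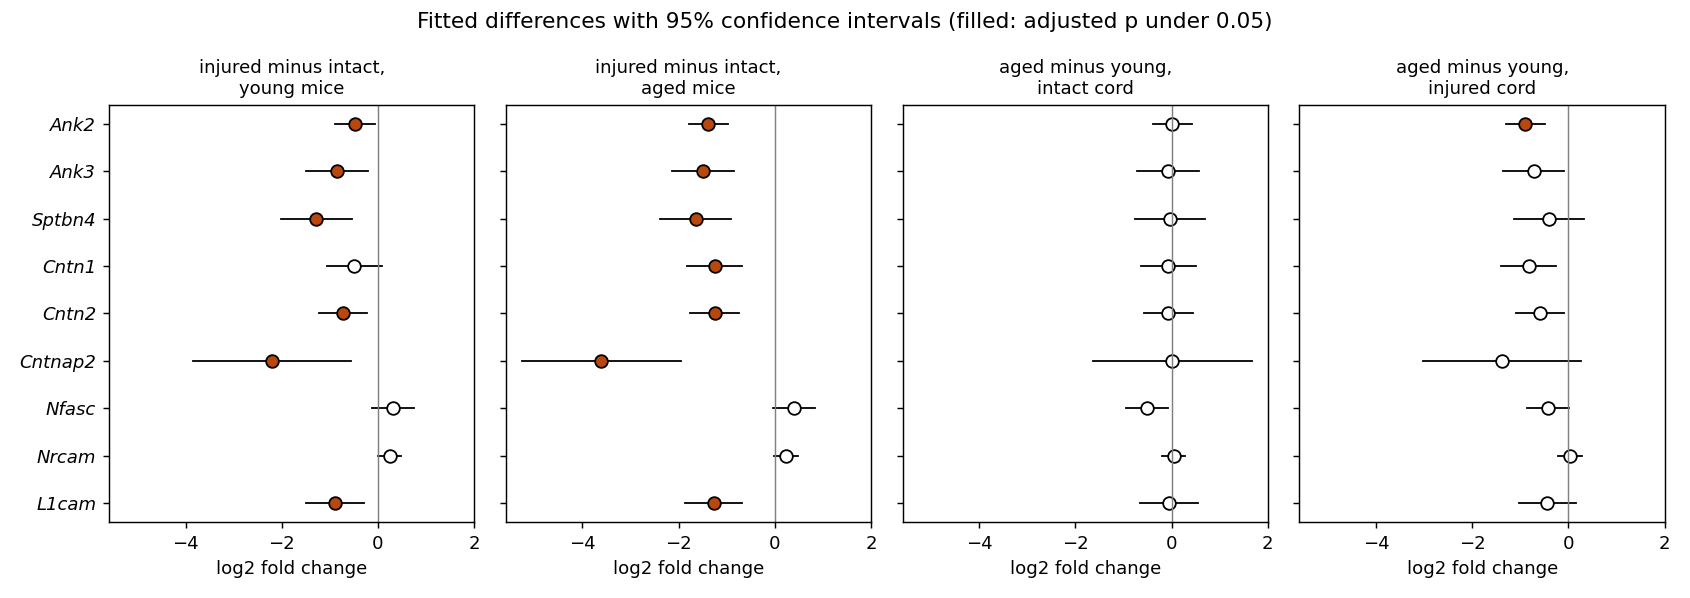
Fitted log2 fold changes of the 9 genes with 95% confidence intervals for the comparisons of injured with intact cord at each age and of aged with young mice in each state. Filled points passed an adjusted p of 0.05: 6 genes in young mice, 7 in aged mice, none between the ages in intact cord and Ank2 between the ages in injured cord.

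A list of 42 further genes of the node, the juxtaparanode and axon adhesion was read in the same way, of which 35 were tested. After SCI 26 fell and 2 rose in young mice (median log2 difference -1.09), and 29 fell and 2 rose in aged mice (median -1.30), beside 34.1% and 33.9% of all genes in young and 39.9% and 35.6% in aged mice. Without replicate 1 of the aged injured group the counts were 29 and 3 in young mice, beside 37.3% and 35.5% of all genes, and 29 and 4 in aged mice, beside 38.5% and 33.8%. The medians were then -1.09 in young and -1.03 in aged mice, so the larger median fall in aged mice rested on that array. Between the ages none was called in intact cord, where 2 had an unadjusted p under 0.05, and 2 of 35 were called lower in aged injured cord, a share near the 4.58% of all genes. These were the perineuronal and nodal matrix gene Bcan, at -0.59 (adjusted p = 0.0349), and the spectrin Sptbn1, at -0.23 (adjusted p = 0.0341). None was called in the interaction, where 2 had an unadjusted p under 0.05.

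All 6 channel genes of the node that were tested fell at both ages, with median log2 fold changes of -2.14 in young and -2.99 in aged mice. The sodium channel alpha subunits Scn1a and Scn8a had log2 fold changes of -2.37 and -2.36 in young mice and -3.55 and -3.21 in aged mice. The beta subunits Scn4b and Scn2b were at -2.38 and -1.93 in young and -3.40 and -2.76 in aged mice, and Scn2a was at -2.78 in aged mice. All 6 juxtaparanodal genes fell at both ages, with medians of -1.50 and -2.11. Both counts stand beside 34.1% of all genes lower in young and 39.9% in aged mice. Among them the potassium channel subunits Kcna2 and Kcnab2 were at -2.11 and -1.91 in young mice, and Kcna2 was at -2.87 in aged mice. All of these aged values include aged injured replicate 1. Without that array the aged medians were -2.32 for the channel genes and -1.64 for the juxtaparanodal genes, nearer to the young medians.

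Shares of all genes, for the counts that follow, were 34.1% lower and 33.9% higher in young and 39.9% lower and 35.6% higher in aged mice. Of 5 further cytoskeletal genes, 4 fell in young and all 5 in aged mice. Of 12 adhesion genes, 7 fell and 1 rose in young mice and 9 fell in aged mice. Cntn4 and Cntnap5a, relatives of the contactins and of Cntnap2, fell, with log2 fold changes of -1.93 and -1.92 in young and -2.88 and -3.17 in aged mice. Their injured means were under 50, at 24.8 and 39.2 in young and 16.3 and 22.2 in aged mice. The sizes of these 2 falls are therefore uncertain. The 6 matrix genes were mixed, 3 lower and 1 higher in young mice and 3 lower and 2 higher in aged mice. The genes that rose were named after their values were seen: Vcan, the proteoglycan versican, by 1.61 in young and 2.01 in aged mice, Tnr, the matrix protein tenascin R, by 0.91 in aged mice, and Chl1, the fourth L1 family gene, by 0.49 in young mice (adjusted p = 0.00228). In aged mice Chl1 was at 0.25 (adjusted p = 0.0577).

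**Figure D5:**
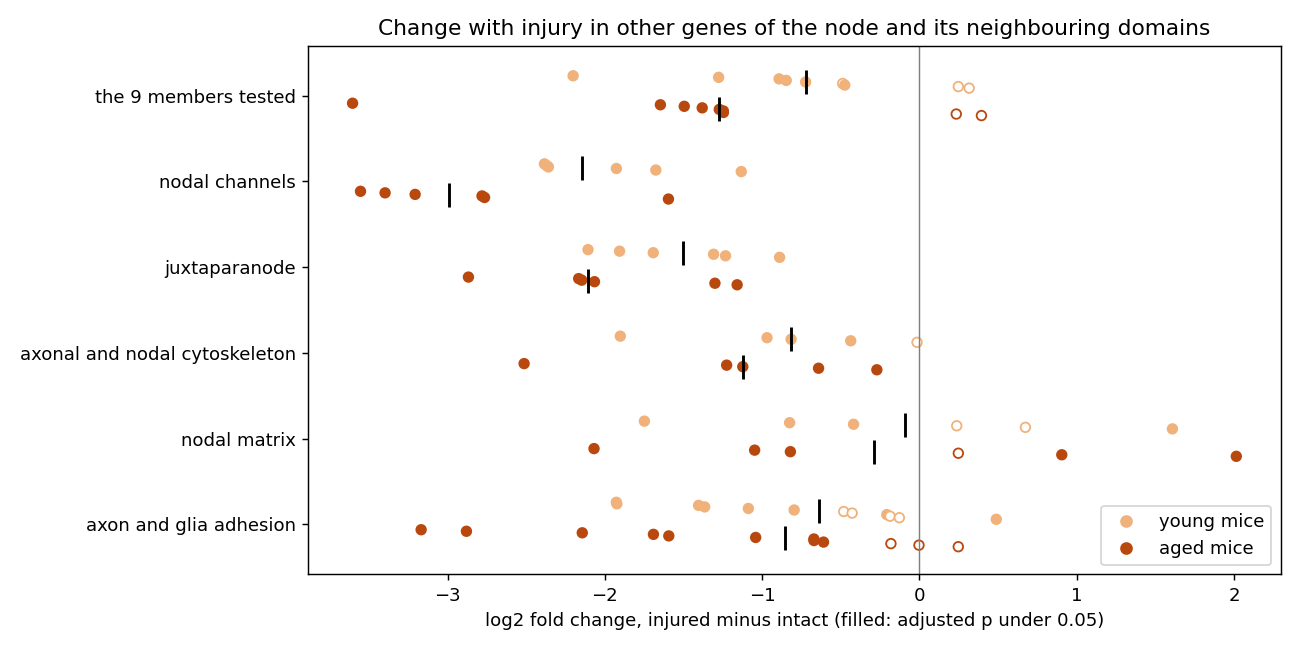
Log2 fold change with SCI for the 9 genes and for 35 further genes of the node, juxtaparanode, cytoskeleton, nodal matrix and adhesion, in young (light) and aged (dark) mice; filled points passed an adjusted p of 0.05 and black bars are medians. All points of the nodal channels and juxtaparanode are filled and lie left of 0, while the matrix genes lie on both sides.

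The neuron markers moved in the same direction as these lists. In young mice 9 of 14 fell (median log2 difference -1.43), and in aged mice all 14 fell (median -2.44). Without replicate 1 of the aged injured group all 14 fell at both ages, with medians of -1.43 and -1.65, beside 37.3% and 38.5% of all genes. Of the 12 myelin markers 3 fell and 1 rose in young mice and 7 fell in aged mice, with medians of -0.28 and -0.48. Without replicate 1 of the aged injured group the myelin medians were -0.28 and -0.24. Over all genes tested, 34.1% fell and 33.9% rose in young mice, and 39.9% fell and 35.6% rose in aged mice. The part of these markers in the results was not tested.

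The 9 genes did not share 1 profile over the 4 groups. With each gene centred on its own mean, Cntn2 lay nearest to their average, at a root mean square distance of 0.0154 on the log2 scale, while Cntnap2 (1.00), Nfasc (0.687) and Nrcam (0.654) lay farthest. The other genes of the array nearest to that average over the 4 group means were Pfkm (0.0132), Tppp3 (0.0137), Scd1 (0.0216), Kazn (0.0243) and Ehbp1 (0.0252). Pfkm, a phosphofructokinase of glycolysis, had mean signals of 641.7 and 602 in young and aged intact and 388.4 and 259.2 in young and aged injured cord. The likeness is over 4 values per gene and is a description.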

How the data were processed

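Total RNA of the Th9 cord segment was hybridized by the authors to mouse Affymetrix arrays, 1 per sample, and the deposited signal intensities came from MAS 5.0, which scales each array as a whole; the trimmed mean of each of the 12 arrays was 100. Of 45101 probes, 34958 had 1 gene symbol, 932 had several and 9211 had none in the platform annotation, and only those with 1 symbol were used. The probe of highest mean signal stood for each gene. Log2 signals were fitted with limma 3.58.1 in R 4.3.3, with 1 mean per group over all 12 arrays, a trend in the spread and Benjamini-Hochberg adjustment over 10511 genes. A gene was called at an adjusted p under 0.05. Where a group mean was under 50, that group was set to 50 for the fold, which is then given as "at least". Folds are between signals, and levels of different probes were not compared. With 3 arrays a group, their number limits the precision. Each p-value sets a difference against 1 spread per gene, estimated from all 12 arrays and drawn towards the trend over genes. The standard error and p-value of a comparison thus also depend on arrays outside it. The scripts were tested on simulated data in which each gene had the same spread in all groups. That test does not cover the wider spread of the aged injured arrays. Genes and lists were chosen with earlier results of these data known. All 10 genes are named, further genes are the called ones of largest change, at most 8 a comparison, and the 5 nearest in profile. Scaling, filter, pseudocount, probe, spread model, array weights, replicate block, arrays in the fit and the call rule were varied.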

Additional observations from a re-analysis of the deposited data

How the results depend on the processing

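In aged mice 7 to 9 genes were called after SCI under every setting tried. In young mice the main count of 6 became 3 with the mean of all probes of a gene and 2 under the study's cutoffs (a mean above 50 and a ratio above 2). With only the young arrays in the fit these 6 stayed called (limma, adjusted p at most 0.000772). Cntn1, Nfasc and Nrcam were then called as well (adjusted p = 0.000299, 0.0129 and 0.0144), as they were with array weights (adjusted p = 0.00105, 0.019 and 0.00183). Leaving out 1 array gave 2 to 9: 3 without young intact replicate 3, 2 without young injured replicate 1 or 3, and 9 without aged injured replicate 1. For aged against young intact cord the count of 0 became 1 (Nfasc) with only the arrays compared and with array weights, and 0 to 1 on leaving out 1 array, 1 without aged injured replicate 1. In injured cord the count of 1 became 0 with only the arrays compared (2 with an unadjusted p under 0.05), 3 with array weights and 0 under the study's cutoffs. Leaving out 1 array gave 0 to 7: 0 without young injured replicate 1, 2 or 3 (4, 2 and 3 with an unadjusted p under 0.05), 2 without aged injured replicate 1 and 7 without replicate 2 of that group. The interaction gave 1 (Ank2) with array weights, and 0 to 1 on leaving out 1 array (1 where either aged injured replicate 1 or 2 was dropped). Direction reversed for Ank2 in young mice with the mean of all probes (0.0709, adjusted p = 0.809), where 4 of its 6 probes were under 50 in every group, and in aged mice with the second probe of Nfasc (-0.33) and Nrcam (-0.41), a setting chosen after seeing the data. Why directions or counts changed between settings was not tested. Scaling arrays to the same median moved the median of all genes to -0.20 in young and -0.15 in aged mice.

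With the replicate number as a block, 6, 7, 0, 1 and 0 genes were called in the 5 comparisons, as without the replicate block. Deviations of same-numbered arrays correlated at 0.595, 0.667 and 0.0145 between young and aged injured cord and at -0.0783 to 0.0893 elsewhere. At most 4 of 6 arrays in a comparison correlated best with their own number, in injured cord. Since the labels name nothing shared by a number and not every pair exceeded 0.1, the numbers were not taken to pair the samples.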
